A study of Mus musculus with 4 samples.

Results

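The troponin subunits of the mouse are encoded by 8 genes: Tnnt1, Tnnt2 and Tnnt3 for troponin T, Tnni1, Tnni2 and Tnni3 for troponin I, and Tnnc1 and Tnnc2 for troponin C. They were found by gene symbol in the deposited comparison table and joined by Ensembl gene identifier to the counts. They are 8 of the 49585 genes counted, and all 8 were among the 15078 genes with enough counts to be tested. RNA was sequenced from C2C12 cells, a myoblast line of C3H mice, kept proliferating in medium with 10% fetal bovine serum. The control group holds 2 libraries of cells transduced with the empty retroviral vector pLXSN, and the other holds 2 libraries of cells transduced to overexpress the transcription factor C/EBPβ. Both groups had 7 days of selection with G418 at 1200 μg/ml, and the pooled resistant cells grew for another 48 hours, so the controls share the vector and the selection. No label states that libraries of 1 group are independent cultures, so the p-values below measure only the spread between these libraries, which may be technical.

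Troponin is the calcium switch of striated muscle. Troponin C binds calcium, troponin I holds the thin filament in its inhibited state until calcium arrives, and troponin T anchors the complex to tropomyosin on the actin filament. Each subunit has paralogs named for the muscle in which they prevail: Tnnt1 and Tnni1 are the slow skeletal forms, Tnnt3, Tnni2 and Tnnc2 the fast skeletal forms, Tnnt2 and Tnni3 the cardiac forms, and Tnnc1 serves slow skeletal and cardiac muscle. Tnnt2 is also made in embryonic skeletal muscle and early in the differentiation of cultured myoblasts, and the skeletal genes rise as myoblasts leave the cell cycle and fuse into myotubes.

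Troponin transcripts were lower in the C/EBPβ libraries. Of the 8 genes, 7 fell (edgeR quasi-likelihood test, Benjamini-Hochberg adjusted p under 0.05), against a background of 10.8% of all tested genes called lower. The exception was cardiac Tnni3, whose adjusted p was 0.107. None rose: all 8 fold changes were negative, so the count of members higher was 0 in edgeR and in DESeq2, at adjusted and at unadjusted p. The median log2 fold change of the 8 genes was -1.80, beside 0.00 over all tested genes. In all 8 genes both C/EBPβ libraries lay below both empty vector libraries in CPM (counts scaled to library size), which held for 32.9% of tested genes. In bulk RNA, fewer cells that make a transcript and less transcript per cell cannot be told apart.

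**Figure D1:**
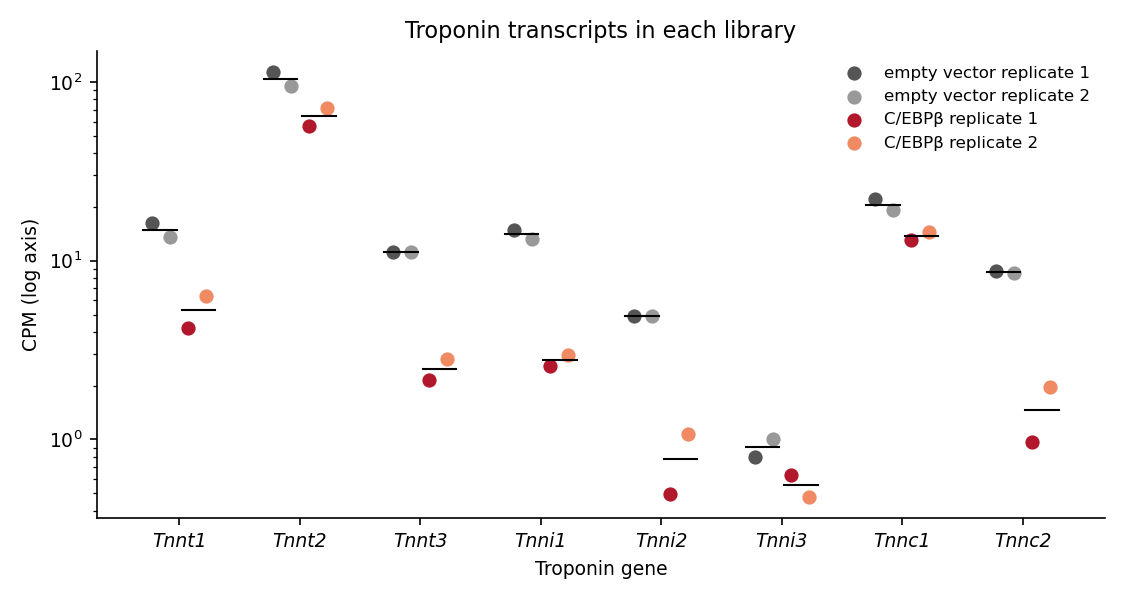
CPM (log axis) of the 8 troponin genes in each of the 4 libraries, with 1 point per library and a bar at the group mean. In each gene both C/EBPβ points sit below both empty vector points, from a wide gap in Tnni2 and Tnnc2 to a narrow one in Tnni3.

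The fold changes covered a wide range of sizes. The 3 fast genes Tnnt3, Tnni2 and Tnnc2 and the slow skeletal gene Tnni1 had log2 fold changes from -2.14 to -2.54. These 4 genes were among the 163 genes, 1.08% of those tested, that were called and fell by more than 2 on the log2 scale. Slow skeletal Tnnt1 lay between, at -1.46. The cardiac genes Tnnt2 and Tnni3, of which Tnni3 was not called, and the slow skeletal and cardiac gene Tnnc1 had values from -0.58 to -0.75. The slow skeletal genes, with Tnnc1 among them, thus ran from -0.58 to -2.32.

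**Figure D2:**
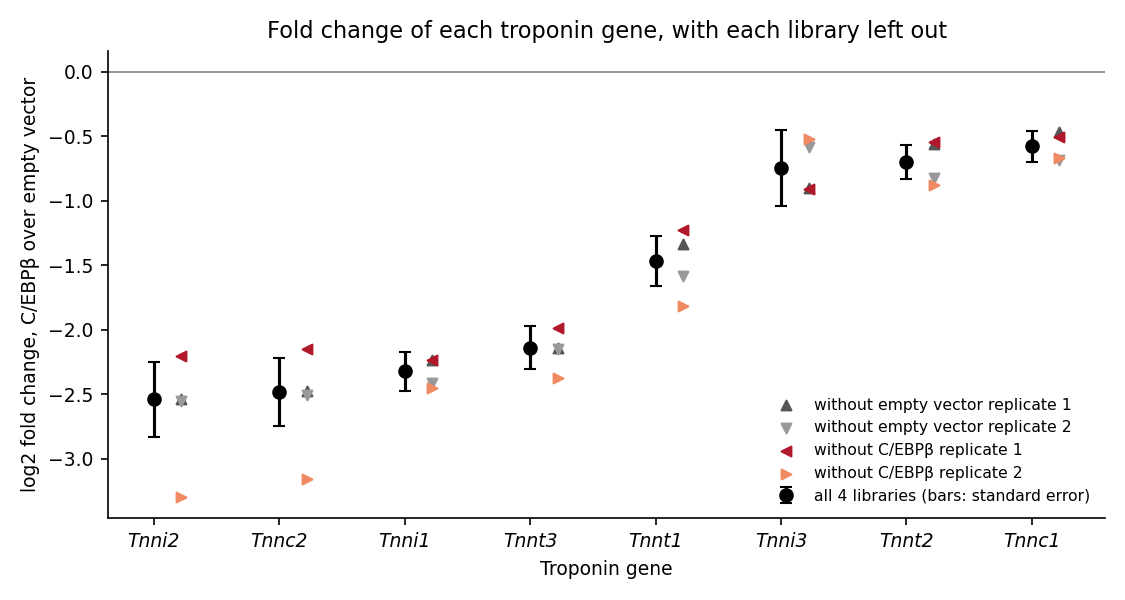
Log2 fold change of each troponin gene, C/EBPβ over empty vector, with its standard error, and, as triangles, the value with each library left out in turn. Tnni2 and Tnnc2 reach furthest down, to -3.29 and -3.16, and Tnnc1 lies nearest to 0.

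Total counts were 37566321 to 40912955 in 3 libraries and 92027838 in C/EBPβ replicate 2, so that 1 count is 0.0244 to 0.0266 CPM in the former and 0.0109 CPM in the latter. Cebpb itself, checked first, stood at 85.0 and 76.8 CPM with empty vector and at 483 and 473 CPM in the C/EBPβ libraries, a log2 fold change of 2.56 (SE 0.09, adjusted p = 3.03e-06), where reads of the gene's own transcript and of the introduced copy were not separated. The myoblast label was checked against markers. Myod1 (129 to 175 CPM), Myf5 (61.7 to 101 CPM) and Des (854 to 1335 CPM) were present in all 4 libraries. This reads presence only: Des was lower with C/EBPβ (log2 fold change -0.57, edgeR adjusted p = 0.00426), and the calls of the whole marker list are given below. In 7 of the 8 troponin genes the deeper C/EBPβ replicate 2 was higher than C/EBPβ replicate 1. Empty vector replicate 1 was also higher than empty vector replicate 2 in 7 of the 8, at similar depth. The share of all genes was counted for neither. With the counts of C/EBPβ replicate 2 thinned to the smallest library total, 7 members again passed as lower.

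Troponin C, the calcium-binding subunit, showed the 2 paralogs at very different distances from their controls. Tnnc2 (ENSMUSG00000017300, chr2:164777161-164779967 in GRCm38, minus strand, 6 exons) is the fast skeletal form. It was at 8.78 and 8.59 CPM in the empty vector libraries and at 0.970 and 1.96 CPM in the C/EBPβ libraries, from 361, 325, 37 and 180 counts. Both C/EBPβ values were far below the controls, and they also differed 2.02-fold from each other. The mean went from 8.68 ± 0.132 to 1.46 ± 0.699 CPM (SD, n = 2 each), a log2 fold change of -2.48 (SE 0.27, edgeR adjusted p = 0.000372). Without C/EBPβ replicate 2 the log2 fold change was -3.16.

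Tnnc1 (ENSMUSG00000091898, chr14:31208312-31211729, plus strand, 6 exons), the slow and cardiac form, was at 22.1 and 19.1 CPM with empty vector and at 13.0 and 14.6 CPM with C/EBPβ. The groups were apart by less than in Tnnc2 but did not overlap. Its log2 fold change was -0.58 (SE 0.12, edgeR adjusted p = 0.00966), from 20.6 ± 2.15 to 13.8 ± 1.09 CPM (SD, n = 2 each). The call was kept without any 1 library, with an adjusted p of at most 0.0430.

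The coding sequences of Tnnc1 and Tnnc2, aligned from the GENCODE M21 annotation of the same build, were 71.2% identical with a longest shared run of 21 bases. The first 60 coding bases are shown because they let the paralogs be compared base by base, with the 32 differing bases in capitals.
Tnnc1: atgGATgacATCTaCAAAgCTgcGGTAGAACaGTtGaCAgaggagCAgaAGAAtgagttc
Tnnc2: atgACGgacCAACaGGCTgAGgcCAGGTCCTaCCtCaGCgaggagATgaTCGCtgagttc
Among the troponin T and troponin I pairs the coding identity was 69.7% to 71.9%, with longest shared runs of 14 to 22 bases.

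The make-up of troponin C differed between the groups in every library. Shares were taken from counts divided by the merged exon length of each gene, and their values depend on the length used. Tnnc1 held 66.0% and 63.1% of troponin C in the empty vector libraries and 91.2% and 85.1% in the C/EBPβ libraries. Every C/EBPβ share was above every control share. The mean share of Tnnc1 went from 64.5% ± 2.04 to 88.1% ± 4.29 (SD, n = 2 each), and that of Tnnc2 was 35.5% and then 11.9%. An exact two-sided permutation test of 2 libraries against 2 cannot give a p below 0.333, which is the value obtained here, so no share or sum can pass 0.05 in that test.

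Troponin I, the inhibitory subunit, had the widest gap between the groups when the paralogs of a subunit were summed. Its summed FPKM, which here are CPM divided by the merged exon length in kilobases, went from 7.62 ± 0.284 to 1.56 ± 0.298 (SD, n = 2 each), a 4.88-fold lower mean. The sums of troponin T and troponin C were 2.23-fold and 2.03-fold lower. With the length of each gene's principal transcript, an alternative chosen after the data were seen, troponin I was 4.85-fold lower. Troponin T was then 1.84-fold and troponin C 1.93-fold lower, so the order of these 2 turned on the length used. The exact permutation p was 0.333 for each of the 3 sums at either length, the smallest it can be.

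Tnni1 (ENSMUSG00000026418, chr1:135779434-135810989, plus strand), the slow skeletal inhibitor, was at 14.9 and 13.2 CPM with empty vector and at 2.57 and 2.98 CPM with C/EBPβ. The libraries within each group were close and the groups were well apart. It had the smallest adjusted p of the family in edgeR, 3.19e-05, with a log2 fold change of -2.32 (SE 0.15). The value stayed between -2.45 and -2.24 when any 1 library was left out.

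Tnni2 (ENSMUSG00000031097, chr7:142441808-142444410, plus strand) encodes the fast skeletal inhibitor. Its CPM were 4.93 and 4.89 in the empty vector libraries and 0.498 and 1.07 in the C/EBPβ libraries, the lowest of them resting on 19 counts. The control libraries were nearly equal, while the C/EBPβ libraries differed 2.14-fold. The log2 fold change of -2.54 (SE 0.29, edgeR adjusted p = 0.000485) was the most negative of the 8. It was -3.29 without C/EBPβ replicate 2 and -2.20 at its nearest to 0 among the fits with 1 library left out.

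Tnni3 (ENSMUSG00000035458, chr7:4518305-4524229, minus strand), the cardiac inhibitor, was the least abundant member, with 33 and 38 counts in the controls and 24 and 44 counts in the C/EBPβ libraries. These are 0.802 and 1.004 CPM against 0.629 and 0.479 CPM. The groups did not overlap, but the adjusted p was 0.107 in edgeR for a log2 fold change of -0.75 (SE 0.30), and a difference was not established at this depth. It was not called in any of the 10 alternatives that tested it, where the adjusted p ran from 0.0802 to 0.487. The gene shares 86 exon bases with Dnaaf3 on the same strand, and the value of Dnaaf3 was -0.31 (adjusted p = 0.25).

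Within troponin I, the share of Tnni1 was 52.9% and 49.4% in the controls and 52.8% and 46.7% with C/EBPβ, so the groups overlapped (exact permutation p = 0.667). Tnni2 held 42.2% and 44.0% in the controls against 24.6% and 40.2%. Tnni3 held 4.97% and 6.56% in the controls against 22.6% and 13.1%. The C/EBPβ shares of Tnni2 and Tnni3 were thus on one side of the controls but far apart from each other, and they rest on as few as 19 and 24 counts.

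Troponin T ties the complex to tropomyosin. Tnnt2 (ENSMUSG00000026414, chr1:135836354-135852260, plus strand, 16 exons), the cardiac and embryonic form, had the most counts of any troponin gene. It was at 114 and 94.8 CPM with empty vector and at 56.8 and 71.5 CPM with C/EBPβ. Both C/EBPβ libraries were lower, by a margin wider than the spread in either group. The fall was 1.62-fold, a log2 fold change of -0.70 (SE 0.13, edgeR adjusted p = 0.00532).

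Tnnt1 (ENSMUSG00000064179, chr7:4504570-4516382, minus strand, 14 exons), the slow skeletal form, was at 16.2 and 13.6 CPM in the controls and at 4.22 and 6.37 CPM in the C/EBPβ libraries. The groups did not overlap, and the C/EBPβ libraries differed 1.51-fold. Its log2 fold change was -1.46 (SE 0.20, edgeR adjusted p = 0.00104). Tnnt3 (ENSMUSG00000061723, chr7:142498836-142516009, plus strand, 15 exons), the fast skeletal form, was at 11.2 and 11.1 CPM in the controls and at 2.15 and 2.81 CPM in the C/EBPβ libraries. Controls were almost equal and all values of the other group were far below them. The log2 fold change was -2.14 (SE 0.17, edgeR adjusted p = 7.92e-05), 4.41-fold lower.

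Tnnt2 made up more of troponin T in both C/EBPβ libraries. Its share of fragments per kilobase was 50.5% and 48.1% in the controls and 69.1% and 66.4% with C/EBPβ, a mean of 49.3% ± 1.73 against 67.8% ± 1.92 (SD, n = 2 each; exact permutation p = 0.333). Tnnt3 went from 25.9% ± 2.4 to 12.8% ± 0.0225 and Tnnt1 from 24.8% ± 0.67 to 19.4% ± 1.94. The direction was the same with the length of the principal transcript of each gene, an alternative chosen after the data were seen, where the share of Tnnt2 went from 77.2% to 87.6% and that of Tnnc1 from 69.7% to 90.3%.

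**Figure D3:**
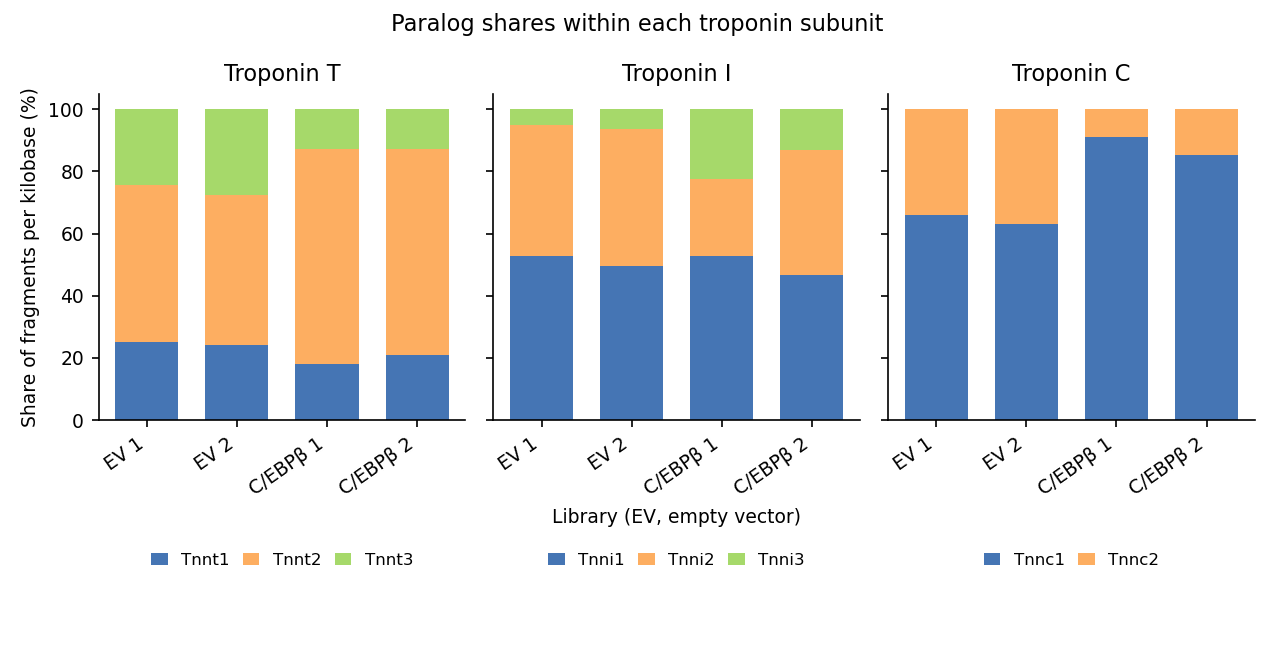
Share of each paralog in the summed fragments per kilobase of troponin T, I and C, in percent, with 1 stacked bar per library (EV, empty vector). Tnnt2 and Tnnc1 take more of their subunit in both C/EBPβ libraries than in either control, while the share of Tnni1 overlaps between the groups.

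Per merged exon length, the order of levels in the empty vector libraries was Tnnc1 with 19.8 FPKM, Tnnt2 with 13.5, Tnnc2 with 10.9, Tnnt3 with 7.04, Tnnt1 with 6.76, Tnni1 with 3.90, Tnni2 with 3.28 and Tnni3 with 0.438. Of these neighbours, the values of Tnnt3 and Tnnt1 overlapped between libraries. With C/EBPβ the order of mean FPKM was Tnnc1 with 13.2, Tnnt2 with 8.28, Tnnt1 with 2.40, Tnnc2 with 1.83, Tnnt3 with 1.57, Tnni1 with 0.771, Tnni2 with 0.523 and Tnni3 with 0.268. There the values of Tnnt1 and Tnnc2, and those of Tnnc2 and Tnnt3, overlapped. The merged exons of Tnnt2 span 7752 bases and its principal transcript 1200, and by principal transcript length Tnnt2 came first in both groups, with 86.9 and 53.5 FPKM. The place of Tnnc2 also turned on the length used: by principal transcript length Tnnt1 lay above it without overlap in both groups, with 14.5 against 12.4 FPKM in the controls and 5.15 against 2.09 FPKM with C/EBPβ.

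In the authors' deposited table all 8 genes also had negative log2 fold changes, and each was within 0.0948 of the value computed here. By its adjusted p, 6 of the 8 were under 0.05, where 13.6% of genes with an adjusted p in that table were lower. The authors' deposited table gives Tnnc1 an adjusted p of 0.128 for a log2 fold change of -0.60, and Tnni3 one of 0.148. Tnnc1 is therefore called lower by the test used here and not in the authors' deposited table. The base means that the authors' deposited table gives for the 8 genes are 1.48 to 58.3 times the highest count of the gene in any of these 4 libraries, while that of Cebpb is 0.285 times. The sources used here do not name the libraries that entered it.

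Promoter sequence is shown for 4 genes so that a pair with larger falls, Tnni1 and Tnnt1, can be set beside a pair with smaller ones, Tnnt2 and Tnnc1. The RefSeq promoter table for GRCm38.p6 matched 6 of the 8 genes, and Tnnt3 and Tnni2 were not among them. Tnnc2 (-2.48) and Tnni3 (-0.75) were matched but are not printed, and the 4 shown were chosen with their fold changes known. Whether motifs go with the size of a fall was not tested. Up to 250 bases before the RefSeq start are printed, 5′ to 3′ on the gene's strand, leaving out bases that belong to an exon. They are chr1:135799171-135799401 (plus) for Tnni1, chr7:4516005-4516225 (minus) for Tnnt1, chr1:135836084-135836333 (plus) for Tnnt2 and chr14:31208062-31208311 (plus) for Tnnc1. Capitals mark matches to the E-box CANNTG, the core bound by myogenic bHLH factors such as MyoD and myogenin, and to the MCAT motif CATTCC or its reverse complement GGAATG, bound by TEAD factors.
Tnni1: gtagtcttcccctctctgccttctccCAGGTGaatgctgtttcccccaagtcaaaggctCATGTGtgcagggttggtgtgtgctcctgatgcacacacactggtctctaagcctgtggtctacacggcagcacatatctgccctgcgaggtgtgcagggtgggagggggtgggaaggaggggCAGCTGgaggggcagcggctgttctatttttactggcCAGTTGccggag
Tnnt1: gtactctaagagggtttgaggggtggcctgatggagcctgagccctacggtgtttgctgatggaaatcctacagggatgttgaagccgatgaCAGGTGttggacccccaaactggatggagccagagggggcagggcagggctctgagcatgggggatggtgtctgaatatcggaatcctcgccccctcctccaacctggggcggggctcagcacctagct
Tnnt2: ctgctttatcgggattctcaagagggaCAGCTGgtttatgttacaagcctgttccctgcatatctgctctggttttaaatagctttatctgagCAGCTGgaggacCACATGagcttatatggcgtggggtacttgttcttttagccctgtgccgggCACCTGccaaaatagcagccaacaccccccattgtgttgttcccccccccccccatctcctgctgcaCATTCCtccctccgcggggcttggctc
Tnnc1: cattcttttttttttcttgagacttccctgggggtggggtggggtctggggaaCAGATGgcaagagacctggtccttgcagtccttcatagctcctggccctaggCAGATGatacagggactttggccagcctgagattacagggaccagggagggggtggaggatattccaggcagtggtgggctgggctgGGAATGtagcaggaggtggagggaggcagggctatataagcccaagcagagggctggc

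All 6 matched promoters held an E-box in the 250 bases, as did 66.2% of the 32851 promoters in the table. Tnni1 and Tnnt2 had 4 each, Tnnc1 and Tnnc2 had 2 each, and Tnnt1 and Tnni3 had 1 each. The table lists another start for Tnni1, with 2 E-boxes in its window, and for Tnnt2, with 1 E-box and no MCAT match. The counts of promoters here use the first listed start. The MCAT letters were found on either strand in 2 of the 6, Tnnt2 and Tnnc1, and in 12.6% of all promoters. In Tnnt2 the match lies 27 to 22 bases before the start, and in Tnnc1, on the other strand, 58 to 53 bases before it. The C/EBP core TTGCNNAA, searched on both strands, was in none of the 6 windows and in 9.56% of all promoters. The MEF2 motif (2.92% of all promoters) and the CArG box of serum response factor (1.47%) were in none of the 6. No E-box match overlapped an MCAT match in the printed stretches. A match describes letters in these windows only.

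Troponin I and troponin T genes lie side by side in 3 pairs, which the data let be compared with the genes around them. Tnni1 and Tnnt2 are 25.4 kb apart on chromosome 1, Tnnt1 and Tnni3 are 1.9 kb apart on chromosome 7, and Tnni2 and Tnnt3 are 54.4 kb apart further along chromosome 7. The log2 fold changes were -2.32 for Tnni1 beside -0.70 for Tnnt2, -1.46 for Tnnt1 beside -0.75 for Tnni3, which was not called, and -2.54 for Tnni2 beside -2.14 for Tnnt3. The differences within pairs were not tested. Lsp1, an actin-binding protein of leukocytes, lies between Tnni2 and Tnnt3. It was at 110 and 111 CPM in the controls and 123 and 113 CPM with C/EBPβ, a log2 fold change of 0.09 (edgeR adjusted p = 0.49).

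Of 12 distinct protein-coding genes that flank the 8 troponin genes, 10 were tested, and 1 fell, 1 rose and 8 were not called. The background was 10.8% of tested genes lower and 14.1% higher. Pkp1, which encodes the desmosomal protein plakophilin and lies 19.1 kb from Tnnt2, went from 141 and 174 CPM to 102 and 104 CPM (log2 fold change -0.62, edgeR adjusted p = 0.00389). Sema3g, a secreted semaphorin gene 6.1 kb from Tnnc1, went from 0.462 and 0.529 CPM to 2.54 and 1.21 CPM (1.86, adjusted p = 0.0124). Leaving out either empty vector library ended the Sema3g call, with adjusted p of 0.0861 (without replicate 1) and 0.0651 (without replicate 2). Lad1, between Tnni1 and Tnnt2, and Syt8, beside Tnni2, had at most 10 counts in any library and were not tested. Nisch and Ube2c overlap Tnnc1 and Tnnc2 on the opposite strand, and the counting was strand-specific.

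**Figure D4:**
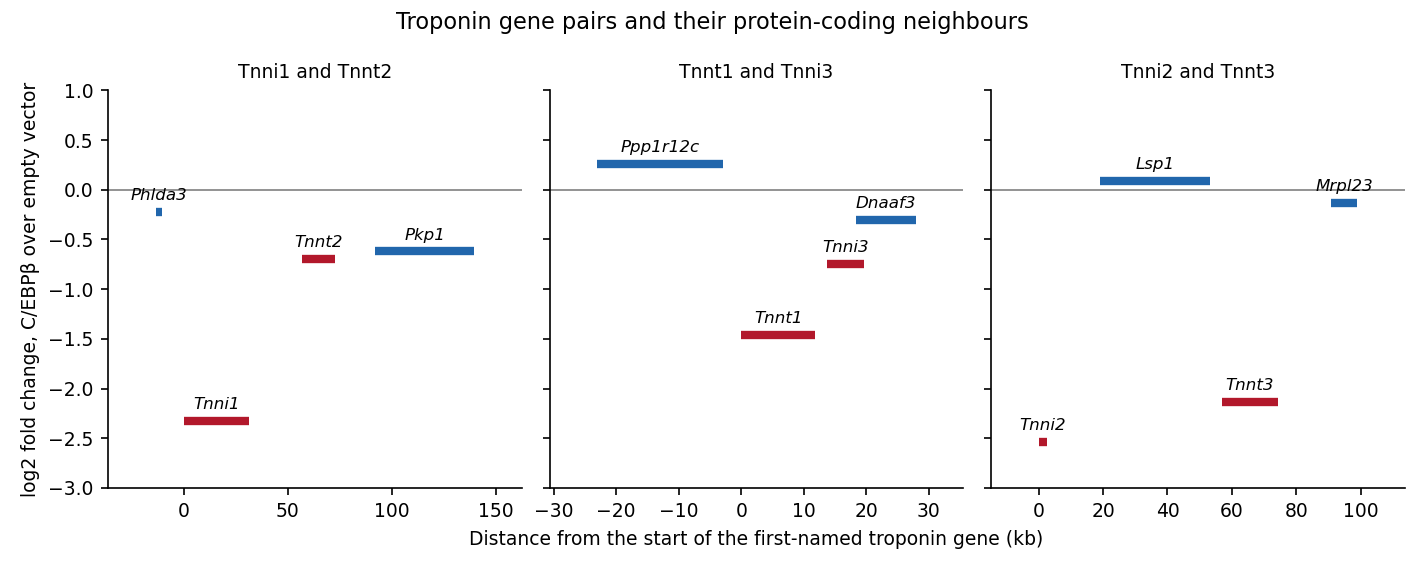
Log2 fold change (C/EBPβ over empty vector) of the troponin genes (red) and their tested protein-coding neighbours (blue) at the 3 paired loci, against distance in kb from the lowest coordinate of the first-named gene, with the width of each bar to scale. At each locus the troponin bars lie below those of the drawn neighbours, narrowly so for Tnnt2 (-0.70) and Pkp1 (-0.62), and Lad1 and Syt8 are not drawn because they were not tested.

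Genes of the other thin filament proteins were called in both directions. Of 20 tested genes of actins, tropomyosins, nebulins and the factors that cap and fold them, 11 fell, 4 rose and 5 were not called, beside 10.8% of all tested genes lower and 14.1% higher. The count of partners that rose is near that background. The median log2 fold change of the 20 genes was -0.35. Striated muscle genes were among those that fell. Acta1, skeletal muscle actin, went from 45.7 and 41.5 CPM to 10.98 and 12.8 CPM (log2 fold change -1.87, edgeR adjusted p = 2.37e-05). Xirp1, an actin-binding repeat protein, went from 14.5 and 16.8 CPM to 4.09 and 5.02 CPM (-1.76, adjusted p = 0.000132). Klhl40, which stabilises thin filament proteins, went from 1.90 and 1.77 CPM to 0.131 and 0.218 CPM (-3.27, adjusted p = 0.000214), the last 2 values from 5 and 20 counts.

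Among the 4 thin filament genes that rose, Lmod1, a smooth muscle leiomodin, went from 1.90 and 1.24 CPM to 52.4 and 31.4 CPM (log2 fold change 4.72, edgeR adjusted p = 2.58e-05). Tpm2, a tropomyosin gene, went from 395 and 330 CPM to 753 and 580 CPM (0.88, adjusted p = 0.00286). Its counts are per gene, so which of its transcript forms rose is not known. Acta2, smooth muscle actin, went from 1324 and 883 CPM to 3263 and 2312 CPM (1.34, adjusted p = 0.00289). The groups of these 3 genes did not overlap, but they were named for being called. No share of all tested genes higher without overlap was counted to set beside this.

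Fibre type and developmental muscle genes, which include calcium handling genes, were lower or not called. Over all tested genes 10.8% were lower and 14.1% higher. Of 8 tested fast fibre genes (11 listed) 4 fell, with a median log2 fold change of -1.57. Myl1 (-2.21, adjusted p = 4.78e-05) and Mylpf (-2.45, adjusted p = 9.74e-05), both fast light chains, and the heavy chain Myh1 (-3.33, adjusted p = 8.48e-05) were among them. Of 3 tested slow fibre genes (8 listed) 2 fell, the slow heavy chain Myh7 (-2.39, adjusted p = 0.00133) and the calcium store protein Casq2 (-1.87, adjusted p = 0.00433). The calcium pump gene Atp2a2 had a value of 0.09 (adjusted p = 0.5). Atp2a2 was at 459 to 504 CPM and Myh7 at 0.157 to 1.24 CPM over the 4 libraries, and counts per gene do not separate transcript forms. Of the 3 embryonic and perinatal genes, Myh3 (-2.48, adjusted p = 0.0051) and Myh8 (-2.53, adjusted p = 0.00772) fell. Myl4, an embryonic light chain, had a value of -0.52 at an adjusted p of 0.0536. Leaving out empty vector replicate 2 ended the Myh8 call (-1.89, adjusted p = 0.0686). Leaving out C/EBPβ replicate 2 gave values larger in size, -3.62 for Myh3, -3.49 for Myh8 and -2.71 for Casq2.

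Among 18 tested transcription factors and cofactors described as regulators of troponin or fibre type genes (19 listed), 7 fell, 3 rose and 8 were not called, with a median log2 fold change of -0.11. Over all tested genes 10.8% were lower and 14.1% higher, and the count of regulators that rose is near that background. Myog, the myogenin that drives differentiation, went from 61.1 and 51.4 CPM to 5.32 and 10.9 CPM (log2 fold change -2.75, edgeR adjusted p = 0.000239). As in Tnni2 and Tnnc2, C/EBPβ replicate 2 was the higher of the 2 low values, and without it the log2 fold change of Myog was -3.40. Mef2c, a partner of the myogenic factors, went from 6.22 and 7.03 CPM to 1.10 and 1.51 CPM (-2.30, adjusted p = 0.000151). Vgll2, a TEAD cofactor, went from 21.98 and 25.6 CPM to 6.92 and 9.66 CPM (-1.502, adjusted p = 0.00042).

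Myod1, the myoblast determination factor, had a small fall, from 175 and 166 CPM to 129 and 137 CPM (log2 fold change -0.36, edgeR adjusted p = 0.0151), a call not kept when C/EBPβ replicate 1 was left out (0.152). Those that rose were Nfatc1, a calcineurin-responsive factor (1.04, adjusted p = 0.000408), Myf5, a determination factor (0.60, adjusted p = 0.00179), and Nfix, a factor of fetal myogenesis (0.68, adjusted p = 0.00386). Levels of these 3 did not overlap between the groups, which adds little because they were named for being called. The share of all tested genes that were higher without overlap was not counted.

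**Figure D5:**
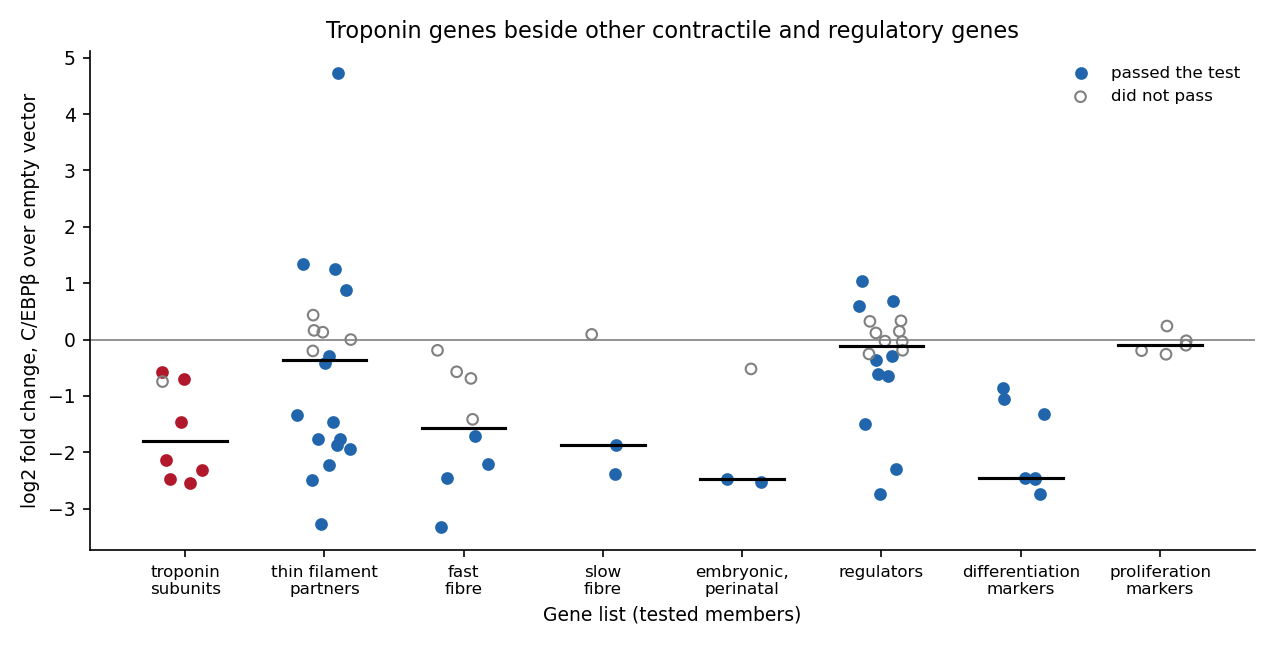
Log2 fold change of every tested gene in the troponin list and in 7 lists of related genes, 1 point per gene (open where the gene did not pass), with a bar at each list's median. The troponins lie wholly below 0 with a median of -1.80, while the thin filament partners spread to both sides of 0.

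Markers of differentiation moved with the troponins. All 7 tested genes of 8 fell, beside 10.8% of all tested genes lower and 14.1% higher. Their summed level was 371 to 389 CPM with empty vector and 143 to 172 CPM with C/EBPβ. Cdkn1a alone held 227 to 238 CPM and then 122 to 134 CPM of it. Besides Myog, Mylpf and Myh3, which also stand in the lists above, the markers include Cdkn1a (-0.86). Cdkn1a is a cell cycle inhibitor that rises as myoblasts exit the cycle. The part of these markers in the troponin result was not tested. Of 5 proliferation markers none was called in edgeR or in DESeq2, and 1 had an unadjusted p under 0.05 in each. The log2 fold change of Mki67 was 0.24 (adjusted p = 0.262), Top2a -0.02, Ccnb1 -0.20, Mcm5 -0.10 and Pcna -0.26 (adjusted p = 0.0674), and their summed CPM were 1251 to 1460 with empty vector and 1309 to 1374 with C/EBPβ.

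Since Tnnt2 and Tnni3 are cardiac forms and Tnnc1 serves slow skeletal and cardiac muscle, markers of cardiac muscle cells were read as well. Of 12 markers 3 were tested: Nkx2-5 rose (1.56), and Gata4 (-0.59) and Nppb (-1.82) fell. Over all tested genes 10.8% were lower and 14.1% higher. Hand2 and Nppa were at 0 counts in every library, and Tbx5, Tbx20, Myl7, Mybpc3, Pln and Ryr2 had at most 3 counts in each. Myh6, the cardiac heavy chain, had 8 and 9 counts in the controls and 3 and 2 counts with C/EBPβ, too few to be tested. The summed CPM of the list were 42.2 in both controls and 29.7 and 30.5 with C/EBPβ.

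The counts that follow stand beside 10.8% of all tested genes lower and 14.1% higher. Of 7 markers of myoblast identity 6 fell and 1 rose. Itga7 (-1.42), Cdh15 (-1.25) and Chrna1 (-0.74) were among those that fell, and Myf5 was the one that rose. The summed CPM of the 7 were 3455 to 3749 and then 1957 to 2271. Smooth muscle markers were higher, with 3 of 4 tested genes of 6 called, Cnn1 (4.71), Tagln (2.07) and Acta2, Smtn not called (0.16), and summed CPM of 1073 to 1548 and then 2712 to 3910. Of 8 leukocyte markers Tyrobp, Adgre1 and Itgam were at 0 in all libraries, Lyz2 (5.88) and Csf1r (1.33) rose and Cd68 did not pass (0.33), and summed CPM were 5.31 to 6.08 and then 12.8 to 15.2. The adipocyte list had 1 tested gene of 6, Fabp4, which rose (5.34), and summed CPM of 0.132 to 0.243 and then 5.63 to 10.2. The endothelial list had 1 tested gene of 5, Kdr, at 0.00 and not called, and summed CPM of 0.345 to 0.463 and then 0.416 to 0.566. Without empty vector replicate 1 the values were higher for Cnn1 (5.33), Lyz2 (6.79), Csf1r (1.999) and Fabp4 (6.06). The part of these lists in the troponin result was not tested.

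Genes near the mean troponin profile were sought by the distance between centred log2 CPM profiles over the 4 libraries. The mean was that of the 6 called troponin genes that averaged 5 CPM or more. The 5 nearest were Havcr2 at a distance of 0.0168, AU021092 at 0.0437, Igsf11 at 0.0465, Hmga1b at 0.066 and Cst6 at 0.126. Their log2 fold changes lay between -1.60 and -1.65, which follows from choosing them by distance to that mean. Hmga1b is a near-identical copy of Hmga1, and its count is uncertain. The nearest troponin was Tnnt1, at 0.186, farther from the mean than all 5 of these genes. Tnnc1, at 1.09, and Tnnc2, at 1.05, lay far from the mean on opposite sides of it.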

How the data were processed

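Messenger RNA of 4 libraries, 2 per group, was analysed, with groups and replicate numbers taken from the sample titles. The deposited counts, per the file headers, are fragments per gene from featureCounts 1.5.1, read as paired and reverse-stranded against GENCODE M12, with no option for multi-mapping reads. The submitters' processing notes name HISAT2 2.0.4, GRCm38 and featureCounts 1.4.6, so the sources give different featureCounts versions. The authors' deposited table holds the base mean as a signal, the log2 fold change with an error on the same log2 scale, a score (their ratio), and raw and adjusted p-value columns. Its columns are named as in DESeq2. For DESeq2 the version is not given in the sources. Symbols (49326 of 49585 identifiers) and positions came from GENCODE M21 on the same build.

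Genes were kept by filterByExpr of edgeR 4.0.16 (minimum count 10, minimum total 15), in R 4.3.3, which left 15078. They were tested with TMM scaling and the quasi-likelihood test, with Benjamini-Hochberg adjustment over all of them and calls at 0.05. CPM used TMM factors, and FPKM divided them by merged exon length. Log2 profiles used a prior count of 2. The fit was tested on simulated counts with known changes. The alternatives were other scalings, filters and lengths, DESeq2 1.42.0, a replicate block, thinning, and each library left out. The members and the lists were chosen with earlier results of these data known. Named were all 8 troponins, up to 3 called members of each list in each direction by adjusted p (or the 2 most abundant), every tested member of lists with fewer than 6, Cebpb, Myod1, Myog and Mki67, called neighbours, and the 5 nearest profiles. Des, Lsp1, Dnaaf3, Lad1, Syt8, Nisch and Ube2c, and the markers given by count, were named outside that rule after their values were seen.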

Additional observations from a re-analysis of the deposited data

How the results depend on the processing

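The count of 7 troponin genes lower held under every alternative except a filter of 5 CPM in 2 libraries, where Tnni2 and Tnni3 were not tested and 6 were lower. Over all genes, leaving out 1 library gave 966 to 1386 lower, the lowest without C/EBPβ replicate 1, beside 1630. With that stricter filter fewer genes were tested. There 7 of 15 tested thin filament partners, 0 of 1 slow and 1 of 1 embryonic genes were lower. Partners that went untested do not account for the whole drop from 11 lower partners in the main fit. With 1 library left out, 4 to 7 fast fibre genes were lower (7 without C/EBPβ replicate 2), and 1 to 2 embryonic genes (1 without empty vector replicate 2). For the neighbours, 2 were lower and 2 higher with no filter, with DESeq2 and with the replicate block, 0 were higher with the stricter filter, and leaving out 1 library gave 1 to 2 lower and 0 to 2 higher. The change in the share of Tnni1, -1.36 points, ran from -4.41 to 1.68 points with 1 library left out, and was 0.37 without empty vector replicate 1. Kdr (0.00) was -0.0142 with library totals, -0.0867 with DESeq2, -0.0228 with the replicate block and -0.0872 with thinning, and ran from -0.67 to 0.44 with 1 library left out. Top2a ran from -0.17 to 0.13, and was 0.02 without C/EBPβ replicate 1. Where no reason is given, the cause was not tested.

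The labels share replicate numbers between the groups but do not say that a number marks a shared culture or day, and same-numbered libraries had deviations correlated at 0.15 over genes, in 2 pairs. With the replicate block 7 troponin genes were lower, and over all genes 1963 were lower and 2573 higher. Mki67 was called without empty vector replicate 2 (0.49, adjusted p = 0.0138), and the Csf1r call was lost without it (adjusted p = 0.0987). Myl4 passed with library totals, no filter, the block or thinning (adjusted p from 0.0302 to 0.0472), and Pcna with thinning (0.04). With 2 libraries a group the spread is poorly known, and Tnni3 rests on at most 44 counts.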
